A study of Homo sapiens with 12 samples.

Results

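The genes described here are the SR splicing factors and the heterogeneous nuclear ribonucleoproteins (hnRNPs), 2 classes of abundant nuclear RNA-binding proteins. They were chosen by name among the coding sequences counted in all libraries, as every gene called SRSF plus a number, HNRNP, TRA2A, TRA2B, PTBP1, PTBP2, PTBP3, SYNCRIP or RALY. This gave 43 genes, 14 of the SR class and 29 hnRNPs, out of 19305 counted coding sequences. The rule used names and no measured value, although it was set with earlier results of these data known. A count was recorded for 41 of them in at least 1 library, and HNRNPCL1 and HNRNPCL4 were at 0 everywhere.

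SR proteins carry RNA recognition motifs and a tail rich in arginine and serine repeats, bind exonic enhancers and recruit the spliceosome to nearby splice sites. Their tails are phosphorylated by SRPK and CLK kinases, which controls their entry into the nucleus and their release from nuclear speckles. The hnRNPs coat nascent transcripts and often act in the opposite direction, by silencing exons, although several also promote splicing, export, stability or translation of their targets. Many genes of both classes limit their own protein level through an alternative exon that sends their mRNA to nonsense-mediated decay.

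Ribosome-protected fragments were sequenced, so a gene's count follows how many ribosomes sat on its coding sequence and joins mRNA level and translation. The groups were HEK293T cells, a human embryonic kidney line, treated with sodium arsenite and either eIF2A siRNA or control siRNA, and H9 human embryonic stem cells with either eIF2A shRNA or control shRNA and no arsenite named in the labels. Arsenite is an oxidative stressor that halts much translation initiation, eIF2A is an initiation factor separate from eIF2, and all HEK293T groups received arsenite. The HEK293T material was immunoprecipitated for CBP80, the nuclear cap-binding protein, or for eIF4E, the cytoplasmic one, and no immunoprecipitation is given for H9. Each of these 6 groups had 2 libraries, called set 1 and set 2, and the labels do not say whether a set was a separate culture, so the spread behind each p-value is that of these libraries and may be only technical (n = 2 per group unless stated).

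Coding reads ran from 937990 to 1878700 in the 4 H9 libraries and from 4331459 to 5775177 in the 8 HEK293T libraries. In HEK293T, the CBP80 and eIF4E libraries of the same siRNA and set differed by no more than about sampling noise, with a chi-square per degree of freedom of 1.01 to 1.03 over all genes, against 3.95 to 5.52 between the sets of a group. Over the members alone the 4 same-set pairs gave 0.817 to 1.15, and the sets of a group gave 16.7 to 22.4. These pairs were therefore summed and counted as 1 library each, which left 2 libraries per siRNA group with 9500566 to 11375636 coding reads. EIF2A, the targeted gene, had 96.0 and 46.7 counts per 1000000 coding reads (CPM) in the libraries labelled eIF2A siRNA, against 83.2 and 83.5 CPM in those labelled control siRNA, for set 1 and set 2 in that order. In H9 it had 110 and 68.2 CPM with eIF2A shRNA, against 103 and 60.9 CPM with control shRNA. Neither difference passed the test, at adjusted p = 0.643 in HEK293T and 1 in H9, so groups are named below by their labels. Of 12 pluripotency markers, 11 were above 0 in H9, with a summed 5398 to 5703 CPM, against 282 to 300 CPM in HEK293T. LIN28B went the other way, with 29.85 to 42.6 CPM in H9, against 178 to 198 CPM in HEK293T. POU5F1 was at 0 in all libraries. A list of 7 fibroblast genes summed to 920 to 1210 CPM in H9, from THY1, TAGLN, COL1A1 and COL1A2, while LUM and DCN were at 0 there, against 20.8 to 26.9 CPM in HEK293T.

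Rows that name no gene, which include reads aligning to more than 1 place, held 96.2 to 96.5% of all counts in H9 and 87.5 to 89.5% in HEK293T, and how many reads of the members are among them was not tested. HNRNPA1, one of the best known hnRNPs, had 12.8 to 14.0 CPM in H9 and 17.8 to 22.1 CPM in HEK293T, and RefSeq names 75 pseudogenes of it. HNRNPA3, its relative with 17 named pseudogenes, had 10.1 to 22.5 CPM in H9 and 14.3 to 21.2 CPM in HEK293T. HNRNPC has 9 such copies, and SRSF3, HNRNPK and HNRNPDL have 5 each. Levels of different genes are not set against each other. SRSF10, HNRNPA1L2 and HNRNPCL2 had at most 1.83 CPM in any library, and a count of 0 allows up to 3.2 CPM in the shallowest H9 library and 0.316 CPM in the shallowest summed HEK293T library. The levels are bulk values, in which fewer cells of a type and less RNA per cell cannot be told apart.

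The siRNA comparison in arsenite-treated HEK293T cells was designed to ask how less eIF2A changes translation of these genes under stress. EIF2A itself went against the label in set 1, at 1.15 times its control level (95% counting interval 1.05 to 1.26), and was lower in set 2, at 0.559 times (0.4998 to 0.6255), so each direction below is that of the libraries labelled eIF2A siRNA. Of 39 members with enough counts to test, 4 changed in the main fit, which did not pair the sets. SRSF12, a low-count SR protein known to antagonise other SR proteins, rose, and 3 hnRNPs fell, HNRNPH1, HNRNPH2 and HNRNPUL2. All 4 changes were of modest size, between 1.35-fold and 1.45-fold. The test was edgeR's quasi-likelihood test over all genes, where calls needed a Benjamini-Hochberg adjusted p under 0.05, and its log2 changes use library sizes scaled by the trimmed mean of M values (TMM). Of 12331 genes tested 12.4% were called, 6.15% as higher and 6.29% as lower. The SR class had 1 of 13 called and the hnRNPs 3 of 26, so in this fit the members' share was no larger than that of all genes. That comparison depended on the fit. With set number as a replicate block, 5 of 13 SR genes and 9 of 26 hnRNPs were called, beside 2993 of 12331 genes. There the share of both classes was larger than that of all genes, and the added members are named with the other settings below.

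HNRNPH1 and HNRNPH2 are close paralogs that bind runs of guanines. HNRNPH1 had 1141 and 1308 CPM with eIF2A siRNA, against 1656 and 1606 CPM with control siRNA. Its log2 change was -0.50 ± 0.15 (SE, adjusted p = 0.0176). HNRNPH2 had 189 and 246 CPM with eIF2A siRNA, against 288 and 287 CPM with control siRNA. Its log2 change was -0.48 ± 0.14 (adjusted p = 0.0135). Both eIF2A-labelled libraries lay below both control libraries for both genes, and the difference was wider in set 1, where HNRNPH2 had 0.656 times its control level (95% counting interval 0.619 to 0.694), than in set 2, where it had 0.857 times (0.812 to 0.904). The other G-run binders did not pass the test. HNRNPF, a close relative, had 275 and 282 CPM with eIF2A siRNA, against 300 and 332 CPM with control siRNA (log2 change -0.27 ± 0.14, adjusted p = 0.195). HNRNPH3, another relative, had 870 and 1073 CPM with eIF2A siRNA, against 901 and 898 CPM with control siRNA (0.03 ± 0.15, adjusted p = 0.926).

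The start regions of the 2 called paralogs are shown because these genes fell together. Each sequence runs from 250 bases before to 30 bases after the RefSeq start of the gene on GRCh38.p14, 5′ to 3′, with capitals for matches on either strand to any of 6 motifs. These are the CCAAT box with the letters CCAAT, the GC box with GGGCGG, the TATA box with TATAAA, the E-box with CACGTG, the cyclic AMP response element with TGACGTCA and the palindrome TCTCGCGA. No motif of this list is contained in another.

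HNRNPH1, chr5:179634755-179635034, minus strand: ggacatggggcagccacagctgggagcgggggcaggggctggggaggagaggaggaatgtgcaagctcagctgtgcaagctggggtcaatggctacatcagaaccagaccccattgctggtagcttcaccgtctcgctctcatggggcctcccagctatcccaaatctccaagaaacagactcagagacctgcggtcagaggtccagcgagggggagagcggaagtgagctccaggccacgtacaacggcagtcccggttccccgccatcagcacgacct

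HNRNPH2, chrX:101407972-101408251, plus strand: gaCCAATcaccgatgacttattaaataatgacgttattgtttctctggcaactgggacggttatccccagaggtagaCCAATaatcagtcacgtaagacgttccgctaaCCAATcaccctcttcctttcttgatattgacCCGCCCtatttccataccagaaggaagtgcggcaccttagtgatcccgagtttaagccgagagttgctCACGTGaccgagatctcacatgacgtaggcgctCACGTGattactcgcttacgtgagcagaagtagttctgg

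None of the 6 motifs was found in the HNRNPH1 window, which says only that these letters are not in it. The HNRNPH2 window held a CCAAT box, a GC box and an E-box. The CCAAT box was present in 36.0% of the 15089 windows of genes named in the files, the GC box in 58.6% and the E-box in 8.66%. The windows held 11 CpG dinucleotides in HNRNPH1 and 17 in HNRNPH2, against a median of 21 over all windows.

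HNRNPUL2, a relative of the nuclear scaffold protein HNRNPU, had 239 and 219 CPM with eIF2A siRNA, against 286 and 295 CPM with control siRNA. Its log2 change was -0.43 ± 0.14 (adjusted p = 0.0242). SRSF12 had 16.8 and 15.1 CPM with eIF2A siRNA, against 11.1 and 9.58 CPM with control siRNA. Its log2 change was 0.53 ± 0.18 (adjusted p = 0.0424). The groups of both genes did not overlap. These 2 genes moved by similar amounts in each set: HNRNPUL2 had 0.837 times its control CPM in set 1 and 0.742 times in set 2, and SRSF12 had 1.52 times (counting interval 1.20 to 1.93) and 1.57 times (1.21 to 2.06).

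**Figure D1:**
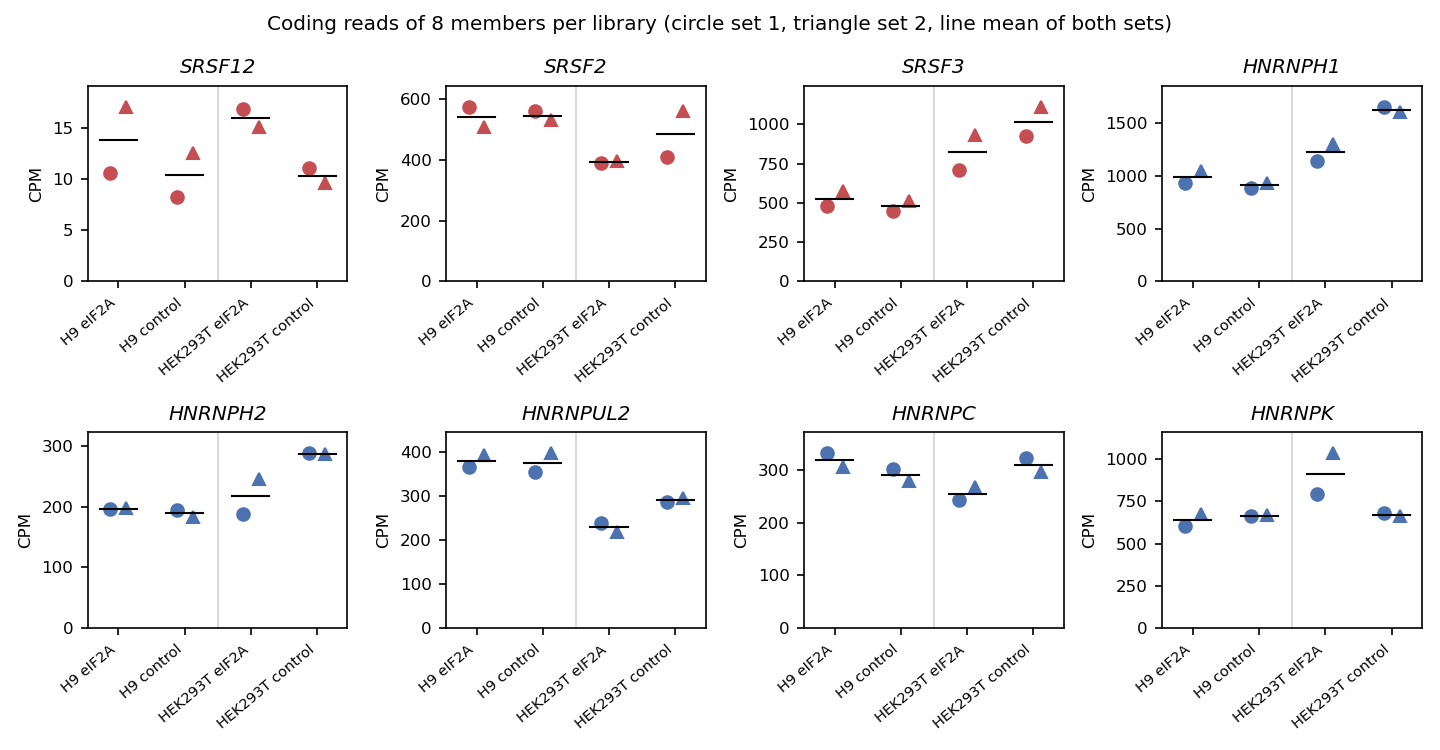
Reads per 1000000 coding reads (CPM, vertical axes from 0) of 8 members in each library, with circles for set 1, triangles for set 2 and a line at the mean of both. In HEK293T the eIF2A siRNA libraries lie below both control siRNA libraries for HNRNPH1, HNRNPH2, HNRNPUL2, SRSF2 and HNRNPC. They lie above them for SRSF12 and HNRNPK, while SRSF3 overlaps. In H9 the points of the shRNA groups lie close together for the members other than SRSF12. That gene had 10.7 and 17.1 CPM with eIF2A shRNA, against 8.24 and 12.6 CPM with control shRNA.

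The 4 calls depended on the libraries used, while each change kept its sign in the fits that left out 1 library. Without control set 1, none of the 4 was called and SRSF2 was the member called, among 983 genes. Without eIF2A set 1, HNRNPK was the member called, among 287 genes, and without control set 2 no member was called, among 75 genes. Without eIF2A set 2 the 3 hnRNPs were still called and SRSF12 was not. That fit also called HNRNPC, HNRNPD, HNRNPDL, SRSF2, SRSF3 and SRSF5, with log2 changes from -0.67 (SRSF3) to -0.42 (HNRNPD). Over these 4 fits the log2 change was -0.66 to -0.36 for HNRNPH1, -0.75 to -0.27 for HNRNPH2, -0.47 to -0.40 for HNRNPUL2 and 0.45 to 0.62 for SRSF12. DESeq2 called the 3 hnRNPs and gave SRSF12 no adjusted p, and with the 8 libraries not summed, HNRNPUL2 was the only one of the 4 called under either label. The libraries labelled eIF2A siRNA also had more of their uniquely placed reads outside coding sequences, 51.1 and 42.3%, against 39.98 and 35.2% in control siRNA libraries, and the part of this in the changes was not tested.

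Among the other SR proteins, the lowest p-values belonged to members that were lower with eIF2A siRNA. SRSF2, which binds exonic enhancers and resides in speckles, had 388 and 396 CPM with eIF2A siRNA, against 410 and 560 CPM with control siRNA (-0.39 ± 0.14, adjusted p = 0.0538). The control value of set 2 stood apart, and within set 1 SRSF2 had 0.947 times its control level. SRSF3, the smallest classical SR protein and an adaptor of mRNA export, had 707 and 935 CPM with eIF2A siRNA, against 924 and 1111 CPM with control siRNA (-0.39 ± 0.15, adjusted p = 0.0716). It was lower in both sets, at 0.765 and 0.841 times, but the groups overlapped because set 2 was higher in each. SRSF5, a classical SR protein, had 357 and 415 CPM with eIF2A siRNA, against 418 and 480 CPM with control siRNA (-0.30 ± 0.14, adjusted p = 0.145). TRA2B, a splicing activator with an arginine and serine tail at each end, had 236 and 218 CPM with eIF2A siRNA, against 250 and 264 CPM with control siRNA (-0.27 ± 0.14, adjusted p = 0.185). The remaining 8 tested SR genes had log2 changes between -0.19 (SRSF9) and 0.17 (SRSF11), with adjusted p of 0.397 or more. SRSF1, the founding member of the family, was at 401 and 409 CPM with eIF2A siRNA, against 377 and 388 CPM with control siRNA, and its log2 change was -0.00 ± 0.14. SRSF7, an export adaptor related to SRSF3, was at 1046 and 1152 CPM with eIF2A siRNA, against 1076 and 1111 CPM with control siRNA (-0.08 ± 0.15).

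The remaining hnRNPs were spread to both sides. HNRNPC, which binds uridine tracts in nascent RNA, had 242 and 267 CPM with eIF2A siRNA, against 323 and 295 CPM with control siRNA (-0.36 ± 0.14, adjusted p = 0.0664). HNRNPD, also called AUF1 and known for binding AU-rich elements of unstable mRNAs, had 287 and 295 CPM with eIF2A siRNA, against 337 and 360 CPM with control siRNA (-0.35 ± 0.14, adjusted p = 0.0807). On the other side, 3 members are named after their values were seen. HNRNPK, a binder of cytosine tracts, had 795 and 1035 CPM with eIF2A siRNA, against 682 and 664 CPM with control siRNA (0.36 ± 0.15, adjusted p = 0.0881). HNRNPR had 692 and 682 CPM with eIF2A siRNA, against 555 and 459 CPM with control siRNA (0.35 ± 0.14, adjusted p = 0.0864). PTBP2, the polypyrimidine tract protein best known from neurons, had 173 and 167 CPM with eIF2A siRNA, against 126 and 128 CPM with control siRNA (0.33 ± 0.13, adjusted p = 0.0852). The groups of these 5 genes did not overlap, which alone is common here: it held for 15 of 26 hnRNPs, 7 of 13 SR genes and 56.6% of all genes tested. Other hnRNPs with many reads did not pass. HNRNPA2B1 was at 4040 and 4389 CPM with eIF2A siRNA, against 4228 and 4041 CPM with control siRNA (-0.06 ± 0.16), and PTBP1 was at 874 and 889 CPM, against 845 and 847 CPM with control siRNA (-0.03 ± 0.14).

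**Figure D2:**
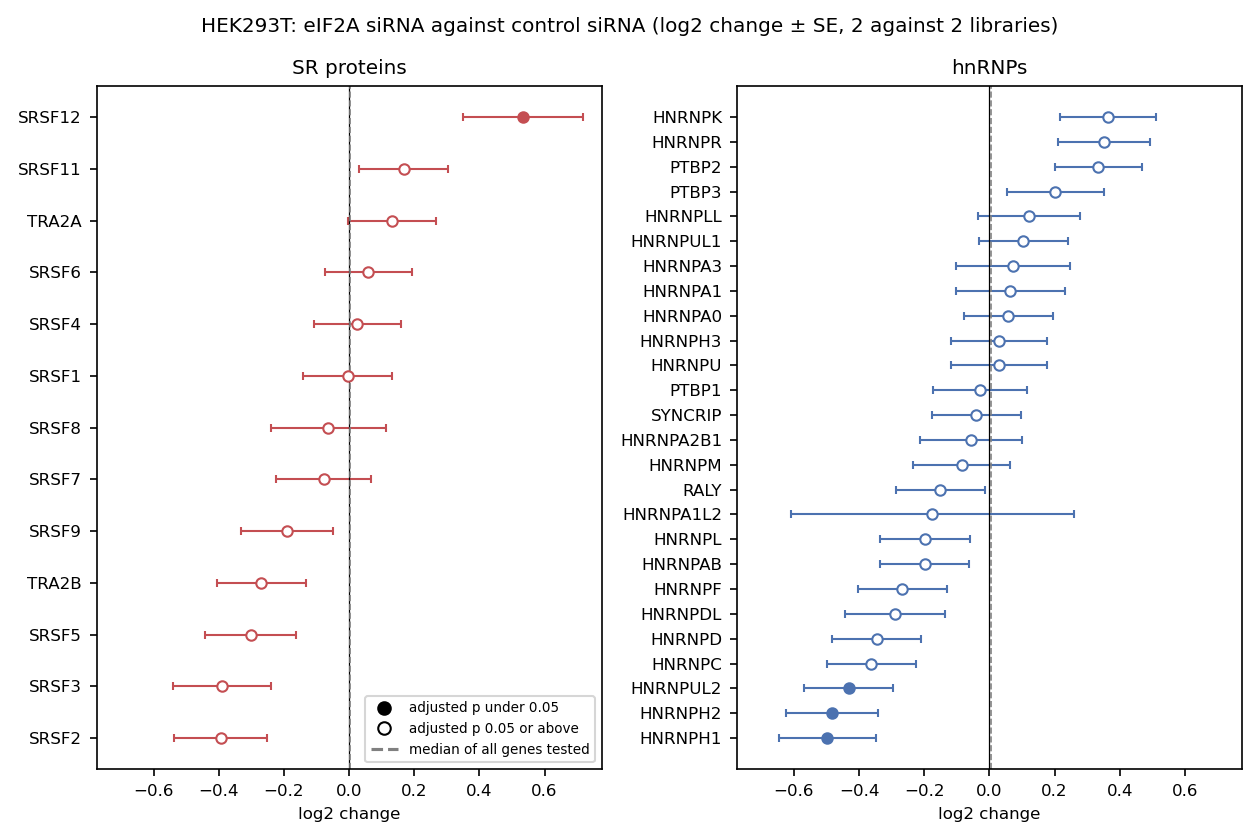
Log2 change (horizontal axis) of each tested member between eIF2A siRNA and control siRNA in HEK293T, with bars for the standard error, filled points for adjusted p under 0.05 and a dashed line at the median of all genes. SRSF12 is the only filled SR point, at 0.53, and HNRNPH1, HNRNPH2 and HNRNPUL2 are the filled hnRNP points, between -0.50 and -0.43.

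The medians of both classes lay close together in this comparison. The median log2 change was -0.06 over 13 SR genes and -0.05 over 26 hnRNPs, against 0.00 over all genes, and no member passed 1 on the log2 scale. With library sizes alone, without TMM, the medians were 0.02 and 0.04, against 0.09 over all genes, and calls over all genes split into 740 higher and 292 lower in place of 758 and 776. Under that scaling HNRNPH1 and SRSF12 were still called, HNRNPH2 and HNRNPUL2 were not, and HNRNPK, HNRNPR and PTBP2 were called as higher.

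Within single sets most members differed by more than counting error. The 95% counting interval of the ratio of eIF2A over control siRNA excluded 1 for 12 of 13 SR genes in set 1 and 11 of 13 in set 2. It did so for 19 of 25 hnRNPs in set 1 and 20 of 25 in set 2. Over all genes holding 40 or more reads in both libraries together, it excluded 1 for 50% and 47.1%. These intervals narrow as reads accumulate, and they do not hold the spread between libraries. That spread was also wide without any change of siRNA: between the control siRNA libraries, set 2 over set 1, the interval excluded 1 for 9 of 13 SR genes and 16 of 25 hnRNPs, against 30.7% of all genes. SRSF2 had 1.37 times (1.31 to 1.42), SRSF9 1.31 times and SRSF3 1.20 times their set 1 level in control set 2, and HNRNPR had 0.827 times.

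**Figure D3:**
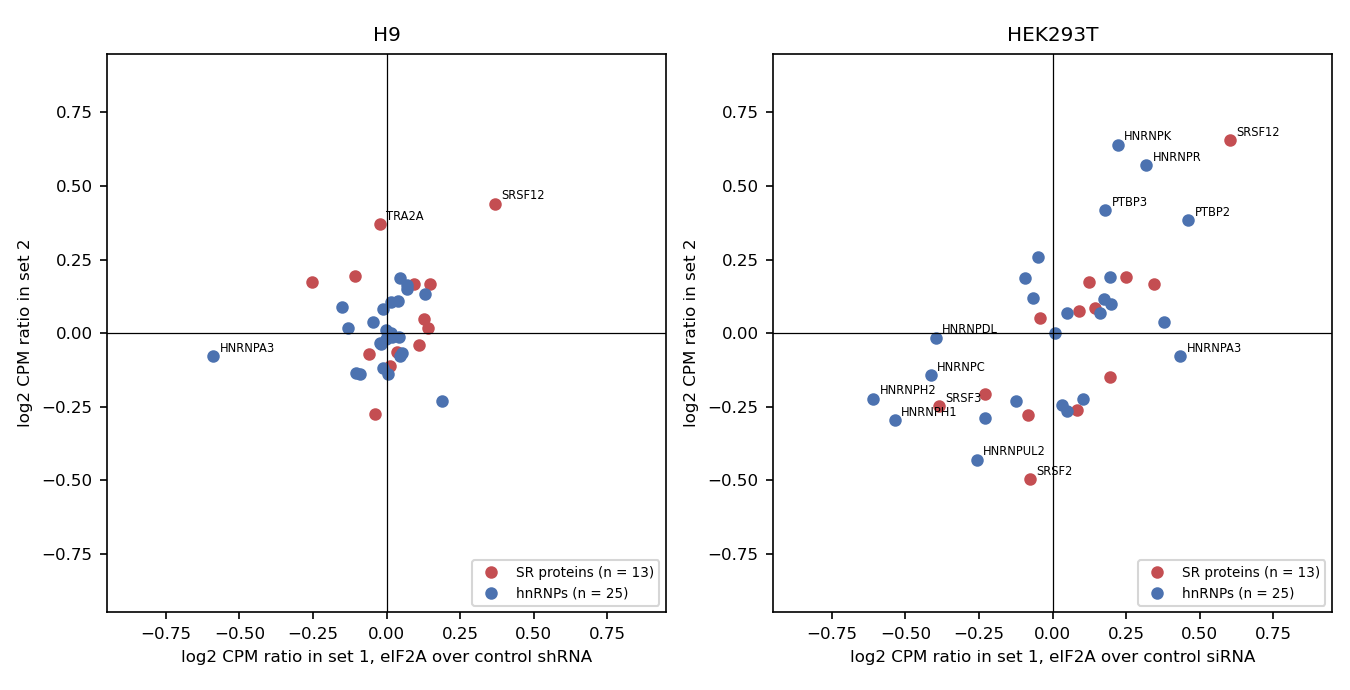
Log2 ratio of eIF2A over control CPM in set 1 (horizontal axis) and set 2 (vertical axis) for the members with at least 5 CPM in every library of that cell line, H9 on the left and HEK293T on the right. Most H9 points lie near the centre, and in HEK293T HNRNPH1, HNRNPH2 and HNRNPUL2 lie in the lower left and SRSF12, PTBP2, HNRNPR and HNRNPK in the upper right.

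Summed over the class, SR genes took 4314 and 4644 CPM with eIF2A siRNA, against 4480 and 5015 CPM with control siRNA. The hnRNPs took 17300 and 18190 CPM with eIF2A siRNA, against 18360 and 17530 CPM with control siRNA. Together the members held 2.16 and 2.28% of coding reads with eIF2A siRNA, against 2.28 and 2.26% with control siRNA. The SR share of the reads of both classes was 19.96 and 20.3% with eIF2A siRNA, against 19.6 and 22.2% with control siRNA. Control set 2 stood above the other libraries and the remaining values lay close together, so the siRNA groups overlapped. In H9 the share was 20.05 and 20.01% with eIF2A shRNA, against 19.6 and 20.1% with control shRNA.

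**Figure D4:**
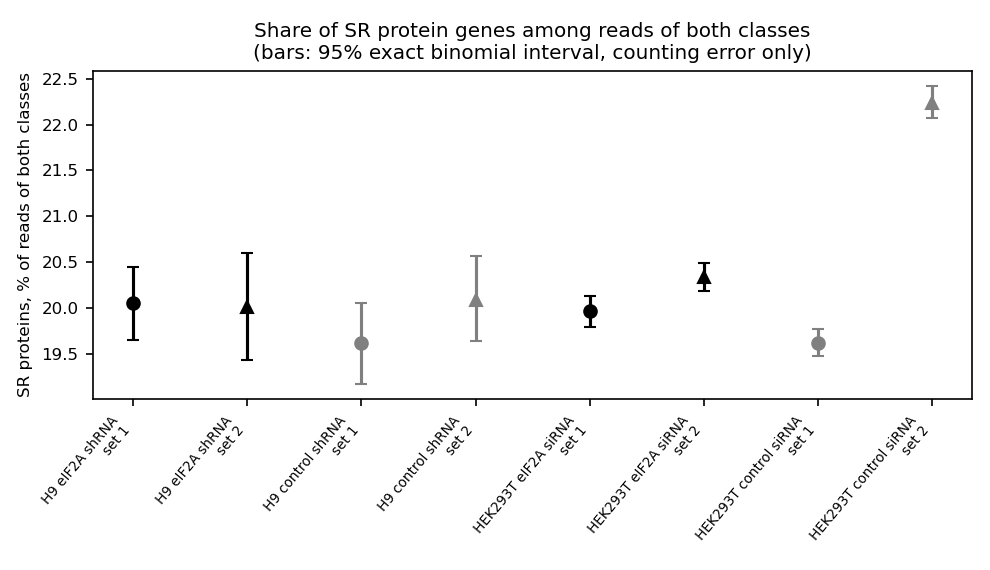
Percentage of reads of both classes that fell on SR genes (vertical axis, not from 0) in each library, with 95% exact binomial intervals that cover counting error only, black for eIF2A and grey for control. The shares lie between 19.6 and 20.3% except in HEK293T control siRNA set 2, at 22.2%.

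No difference between the immunoprecipitation labels, with 4 libraries of each, passed the test. CBP80 binds caps of newly made mRNA and eIF4E those of mRNA under steady translation, and the comparison was designed to ask whether members differ between these pools. Since the CBP80 and eIF4E libraries of a siRNA and set differed by no more than about sampling noise over all genes, whether they hold separate material was not tested, and the absence of calls describes these libraries, not the pools. No member and none of 11778 genes was called (0% of genes, 99 at an unadjusted p under 0.05, and DESeq2 called 1). Member log2 ratios within a pair ran from -0.48 to 0.51, both ends in control set 1. There SRSF12 had 13.0 CPM in the CBP80-labelled and 9.14 CPM in the eIF4E-labelled library, and HNRNPA3 had 11.96 CPM in the CBP80-labelled and 16.7 CPM in the eIF4E-labelled one. TRA2A, a relative of TRA2B, had the lowest SR p, with 86.7 and 82.2 CPM in the CBP80-labelled against 80.5 and 74.3 CPM in the eIF4E-labelled libraries under eIF2A siRNA, and 72.7 and 67.7 CPM against 68.2 and 69.3 CPM under control siRNA (0.08 ± 0.08, adjusted p = 1). The next SR genes were SRSF1 (-0.05 ± 0.08), SRSF4 (0.03 ± 0.08), SRSF6 (-0.03 ± 0.08) and SRSF12 (0.04 ± 0.15). Among hnRNPs the lowest p-values were those of HNRNPA3 (-0.14 ± 0.16), HNRNPUL2 (0.06 ± 0.08), HNRNPD (-0.06 ± 0.08), HNRNPH2 (-0.05 ± 0.11) and HNRNPUL1 (-0.03 ± 0.08). Over the 4 pairs, the counting interval excluded 1 for 5 of 152 member ratios, against 4.62% of all genes' ratios. They were HNRNPL, HNRNPUL1 and HNRNPA3 in control set 1 and SRSF1 and PTBP2 in eIF2A set 2.

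In H9 cells no member passed the test between eIF2A shRNA and control shRNA. Over all genes the eIF2A and control libraries of a set differed little, with a chi-square per degree of freedom of 1.04 and 1.07. Between the sets of a group it was 2.75 and 3.13. EIF2A itself was not lower with eIF2A shRNA in either set, so the absence of calls describes these libraries and not a loss of eIF2A. None of 9751 genes tested was called (0%, 84 at an unadjusted p under 0.05, and DESeq2 called 0), with 13 SR genes and 25 hnRNPs among them. SRSF5 had the lowest SR p, with 290 and 280 CPM with eIF2A shRNA, against 298 and 340 CPM with control shRNA (-0.16 ± 0.13, adjusted p = 1). SRSF4, with a long arginine and serine tail, had 119 and 120 CPM with eIF2A shRNA, against 107 and 107 CPM with control shRNA (0.16 ± 0.15). SRSF3, SRSF12 and TRA2A followed, at 0.13 ± 0.14, 0.33 ± 0.40 and 0.15 ± 0.23. HNRNPC had 331 and 305 CPM with eIF2A shRNA, against 302 and 278 CPM with control shRNA (0.13 ± 0.12). HNRNPH1 had 935 and 1044 CPM with eIF2A shRNA, against 890 and 933 CPM with control shRNA (0.12 ± 0.12). HNRNPD, SYNCRIP and HNRNPA3 followed, at -0.11 ± 0.11, 0.11 ± 0.12 and -0.39 ± 0.41. The medians were 0.04 over SR genes, -0.00 over hnRNPs and 0.00 over all genes.

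Counting intervals of single H9 sets excluded 1 for 1 SR gene and 1 hnRNP in set 1 and for 2 of each class in set 2, against 4.34% and 4.95% of all genes. The H9 libraries of a set were also close to each other over the members, with a chi-square per degree of freedom of 0.967 and 1.37. The sets differed more: in control set 2 over set 1 the interval excluded 1 for 6 of 12 SR genes and 6 of 25 hnRNPs, against 21.5% of all genes. PTBP3, a paralog of PTBP1, had 0.586 times its set 1 level there (0.454 to 0.753), RALY 0.712 times, TRA2A 0.638 times and HNRNPAB 0.772 times. EIF2A itself had 0.589 times.

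Whether the effect differed between the cell lines was tested in 1 fit with the HEK293T effect minus the H9 effect, chosen after the data were seen. None of 12911 genes passed (0%, 1062 at an unadjusted p under 0.05). HNRNPH1 had the lowest member p (-0.60 ± 0.19, adjusted p = 0.426), and HNRNPC and HNRNPH2 followed (-0.48 ± 0.20 and -0.53 ± 0.22, adjusted p = 0.527 for each). Arsenite, immunoprecipitation, the knockdown reagent (siRNA or shRNA) and sequencing depth differ between the lines as well, so they cannot be told apart from the line.

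Setting H9 with control shRNA against HEK293T with control siRNA shows how the composition of both classes differs between the lines as sampled. Of 38 tested members 25 differed. The polypyrimidine tract proteins, HNRNPD, HNRNPAB, RALY and HNRNPLL were higher in H9, while the G-run binders HNRNPH1, HNRNPH2 and HNRNPH3, HNRNPDL and the SR proteins SRSF3, SRSF4 and SRSF7 were lower. Cell line, arsenite, immunoprecipitation, control reagent (siRNA or shRNA), sequencing depth and library batch cannot be told apart here. The fibroblast and pluripotency lists above moved with the line, and their part in the differences was not tested. Of 12307 genes 71.8% were called, 34.5% as higher and 37.3% as lower. The SR class had 8 of 13 called (3 higher, 5 lower) and the hnRNPs 17 of 25 (9 higher, 8 lower), both below the share of all genes. A log2 difference beyond 1 was seen for 3 SR genes and 7 hnRNPs, or 23.1% and 28% of those tested, against 51.2% of all genes.

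Among SR proteins the largest differences were lower values in H9. SRSF3 had 450 and 512 CPM in H9, against 924 and 1111 CPM in HEK293T (-1.24 ± 0.14, adjusted p = 5.96e-18). SRSF7 had 542 and 580 CPM in H9, against 1076 and 1111 CPM in HEK293T (-1.12 ± 0.14, adjusted p = 3.97e-15). All H9 values of both export adaptors lay below all HEK293T values. Control groups that lay apart, in either direction, were common between the lines: 9 of 13 SR genes and 85.5% of all genes tested. SRSF4 had 107 and 107 CPM in H9, against 198 and 186 CPM in HEK293T (-1.0 ± 0.16). SRSF5 (-0.65 ± 0.14) and SRSF11 (-0.44 ± 0.15) were lower as well. TRA2B was the SR gene with the largest rise, with 536 and 455 CPM in H9, against 250 and 264 CPM in HEK293T (0.79 ± 0.14, adjusted p = 8.45e-08). SRSF1 had 580 and 498 CPM in H9, against 377 and 388 CPM in HEK293T (0.33 ± 0.14, adjusted p = 0.0252). SRSF6, a classical SR protein, had 207 and 162 CPM in H9, against 141 and 124 CPM in HEK293T (0.32 ± 0.15, adjusted p = 0.0486). SRSF2, SRSF8, SRSF9, SRSF12 and TRA2A did not pass. The calls of SRSF1, SRSF6 and SRSF11 were lost in 4, 5 and 4 of 10 other settings.

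HNRNPD and HNRNPDL, paralogs that bind AU-rich RNA, lie next to each other on chromosome 4 with no protein-coding gene between them, and they differed in opposite directions. HNRNPD had 991 and 901 CPM in H9, against 337 and 360 CPM in HEK293T (1.28 ± 0.14, adjusted p = 2.73e-19). HNRNPDL had 618 and 573 CPM in H9, against 2715 and 2383 CPM in HEK293T (-2.26 ± 0.14, adjusted p = 1.44e-56), the largest fall of any member. Their start regions are shown, over the same window and with the same motifs in capitals, because these neighbouring paralogs differed in opposite directions.

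HNRNPD, chr4:82373962-82374241, minus strand: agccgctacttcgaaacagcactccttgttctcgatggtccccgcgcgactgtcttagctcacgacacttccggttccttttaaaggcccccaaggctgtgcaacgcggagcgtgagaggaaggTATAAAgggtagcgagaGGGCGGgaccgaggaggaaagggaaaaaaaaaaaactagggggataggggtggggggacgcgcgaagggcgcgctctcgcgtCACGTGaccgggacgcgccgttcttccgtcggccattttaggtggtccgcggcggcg

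HNRNPDL, chr4:82430196-82430475, minus strand: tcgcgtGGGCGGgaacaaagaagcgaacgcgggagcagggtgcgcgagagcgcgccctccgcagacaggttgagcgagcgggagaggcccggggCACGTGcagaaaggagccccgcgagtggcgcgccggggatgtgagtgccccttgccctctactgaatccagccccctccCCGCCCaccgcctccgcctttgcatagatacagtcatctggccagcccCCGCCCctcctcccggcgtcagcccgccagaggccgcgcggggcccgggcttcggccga

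Both windows held a GC box and an E-box, and the HNRNPD window also held a TATA box, which was found in 9.29% of all windows. Over the 40 members with a sequence, the E-box was in 8 of 28 hnRNP windows and 0 of 12 SR windows, against 8.66% of all. The CCAAT box was in 16 of 28 and 2 of 12, against 36.0%, and the GC box in 21 of 28 and 6 of 12, against 58.6%. The cyclic AMP response element was in none of them, against 2.67% of all windows, and the palindrome was in the windows of HNRNPK and SRSF10, against 1.80%. The median number of CpG dinucleotides was 28.5 in hnRNP windows and 29 in SR windows, against 21 in all. These matches are letters in a window and not binding sites.

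The polypyrimidine tract proteins were all higher in H9. PTBP1, a general exon repressor that also limits PTBP2, had 1417 and 1336 CPM in H9, against 845 and 847 CPM in HEK293T (0.54 ± 0.13, adjusted p = 1.10e-04). PTBP2 had 195 and 194 CPM in H9, against 126 and 128 CPM in HEK293T (0.46 ± 0.15, adjusted p = 0.00414). PTBP3 had 113 and 66.2 CPM in H9, against 33.8 and 27.7 CPM in HEK293T (1.38 ± 0.18, adjusted p = 7.49e-14), with a wide gap between its H9 sets. HNRNPLL, known for regulating CD45 exons in T cells, had 127 and 149 CPM in H9, against 23.3 and 24.4 CPM in HEK293T (2.38 ± 0.18, adjusted p = 6.50e-40). It was the member with the largest rise. Its paralog HNRNPL had 728 and 583 CPM in H9, against 469 and 517 CPM in HEK293T and did not pass the test (0.25 ± 0.14, adjusted p = 0.0936). HNRNPLL lies beside SRSF7 on chromosome 2, with 1 protein-coding gene, GALM, between them, and these neighbours also differed in opposite directions.

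The G-run binders differed in both directions. HNRNPH3 had 291 and 234 CPM in H9, against 901 and 898 CPM in HEK293T (-1.93 ± 0.15, adjusted p = 1.76e-38). HNRNPH1 had 890 and 933 CPM in H9, against 1656 and 1606 CPM in HEK293T (-0.996 ± 0.135, adjusted p = 8.71e-13). HNRNPH2 had 194 and 183 CPM in H9, against 288 and 287 CPM in HEK293T (-0.76 ± 0.15, adjusted p = 8.86e-07). HNRNPF was the exception, with 582 and 585 CPM in H9, against 300 and 332 CPM in HEK293T (0.73 ± 0.14, adjusted p = 5.96e-07).

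Core hnRNPs were divided too. HNRNPA2B1, a major packaging protein that also sorts RNA in transport granules, had 2551 and 2466 CPM in H9, against 4228 and 4041 CPM in HEK293T (-0.88 ± 0.13, adjusted p = 5.14e-11). HNRNPAB had 731 and 564 CPM in H9, against 271 and 307 CPM in HEK293T (1.004 ± 0.141, adjusted p = 4.42e-12). RALY, a relative of HNRNPC, had 219 and 156 CPM in H9, against 68.9 and 78.3 CPM in HEK293T (1.19 ± 0.16, adjusted p = 1.37e-13), while HNRNPC had 302 and 278 CPM in H9, against 323 and 295 CPM in HEK293T (-0.25 ± 0.14, adjusted p = 0.113). HNRNPU, which ties chromatin to nuclear RNA, had 2315 and 2407 CPM in H9, against 1387 and 1254 CPM in HEK293T (0.68 ± 0.13, adjusted p = 6.70e-07). HNRNPR, HNRNPM and HNRNPA1 were lower, at -0.60 ± 0.14, -0.54 ± 0.13 and -0.62 ± 0.27, and HNRNPA1 was called in 3 of 10 other settings. HNRNPA0, HNRNPA3, HNRNPK, HNRNPUL1, HNRNPUL2 and SYNCRIP did not pass in the main fit.

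**Figure D5:**
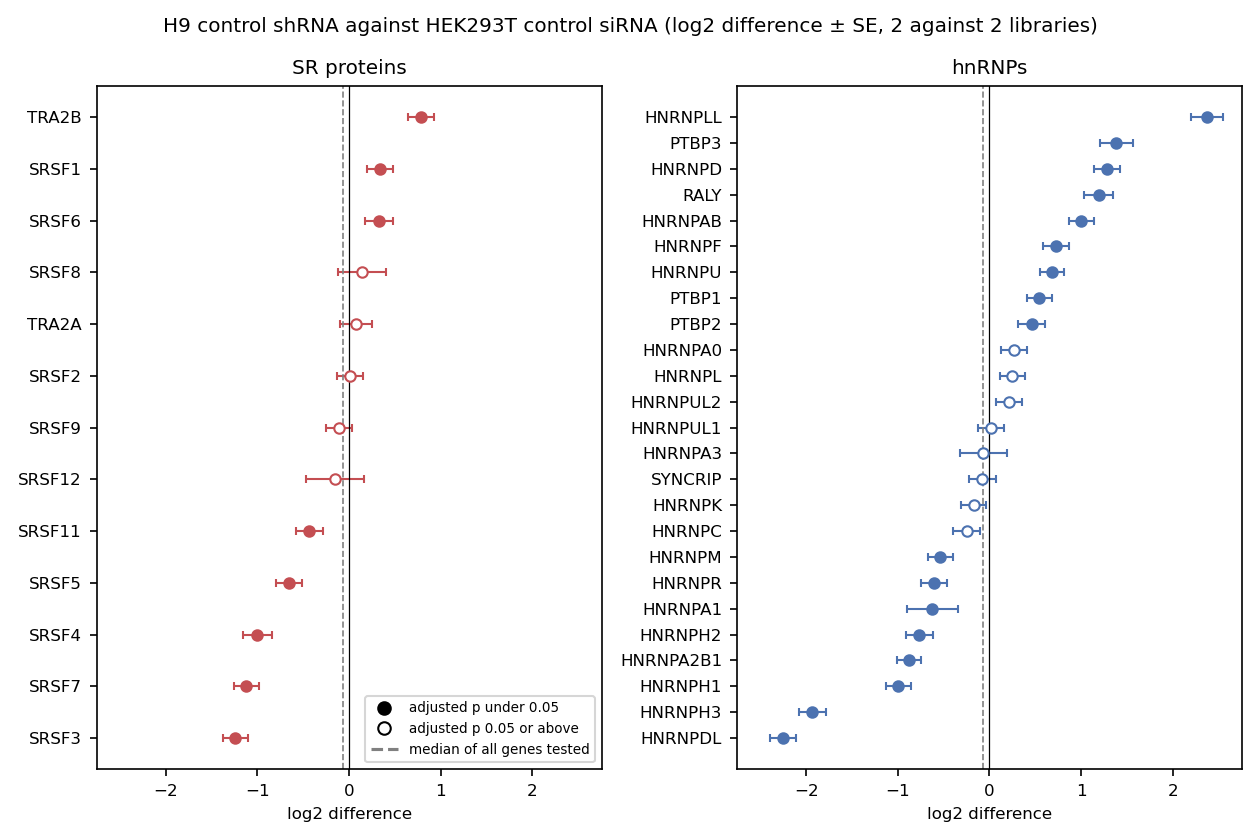
Log2 difference (horizontal axis) of each tested member between H9 control shRNA and HEK293T control siRNA, with bars for the standard error, filled points for adjusted p under 0.05 and a dashed line at the median of all genes. SR points run from -1.24 (SRSF3) to 0.79 (TRA2B) and hnRNP points from -2.26 (HNRNPDL) to 2.38 (HNRNPLL).

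The class medians were close to each other and to all genes. They were -0.11 over SR genes and 0.01 over hnRNPs, against -0.07 over all genes. Library sizes alone moved the median of all genes to 0.09, so medians were also taken relative to it. The SR median minus that of all genes was -0.04 under either scaling, and the hnRNP one was 0.08. The SR difference had no stable sign, at 0.09 with no count filter, 0.15 without H9 set 1 and -0.21 without HEK293T set 1, and the hnRNP difference ranged up to 0.25, without HEK293T set 2. The SR and hnRNP sums were 3977 and 3910 CPM and 16310 and 15550 CPM in H9, against 4480 and 5015 CPM and 18360 and 17530 CPM in HEK293T.

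Regulators and partners of the 2 classes were taken from 4 lists, whose counts stand beside 6.15% of all genes called as higher and 6.29% as lower. Of 14 SR kinases, phosphatases and import factors, 1 rose with eIF2A siRNA in HEK293T, DYRK1A, a kinase of splicing factors, with 52.7 and 41.9 CPM with eIF2A siRNA, against 34.4 and 24.1 CPM with control siRNA (0.60 ± 0.15, adjusted p = 0.00491). Of 21 SR-related proteins 3 rose and none fell. SCAF8 had 99.7 and 76.9 CPM with eIF2A siRNA, against 61.2 and 54.4 CPM with control siRNA (0.52 ± 0.14). U2SURP (0.42 ± 0.14) and SCAF11 (0.38 ± 0.14) rose less. Of 30 other nuclear RNA-binding proteins 1 fell, the cold-inducible CIRBP, with 289 and 349 CPM with eIF2A siRNA, against 407 and 497 CPM with control siRNA (-0.59 ± 0.14, adjusted p = 0.00305). Of 37 core spliceosome genes 1 rose and 6 fell. SF3B1, the branch site factor, had 3712 and 3235 CPM with eIF2A siRNA, against 2396 and 1844 CPM with control siRNA (0.62 ± 0.16, adjusted p = 0.00409). SF3A2 (-0.51 ± 0.14), SNRPG (-0.56 ± 0.16) and SNRPD3 (-0.44 ± 0.15) were among the 6 that fell. The median of this list was -0.17, against 0.00 over all genes.

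Between the lines, where 34.5% of all genes were called as higher and 37.3% as lower, 5 genes of 13 on the kinase list were higher and 5 lower in H9. CLK1 and CLK4, kinases of SR tails, had 19.0 and 21.8 CPM and 13.3 and 9.93 CPM in H9, against 160 and 166 CPM and 56.0 and 56.7 CPM in HEK293T (-3.16 ± 0.21 and -2.43 ± 0.25). PPP1CA, a catalytic subunit of the phosphatase that can remove phosphate from SR tails, was higher (1.05 ± 0.14), and PRP4K, a spliceosomal kinase, was lower (-0.88 ± 0.16). Of 20 SR-related proteins 3 were higher and 8 lower, among them the speckle protein SON, with 655 and 754 CPM in H9, against 1757 and 1563 CPM in HEK293T (-1.39 ± 0.14), and SCAF8 (1.43 ± 0.16), PNN (-1.12 ± 0.15) and LUC7L3 (-0.75 ± 0.15). Of 30 other RNA-binding proteins 11 were higher and 11 lower. MBNL1, a splicing regulator that rises as cells differentiate, had 3.804 and 1.324 CPM in H9, against 72.6 and 68.0 CPM in HEK293T (-4.91 ± 0.34). Its H9 set 2 value lay under the 1.985 CPM that a count of 0 allows in that library, so the size of this difference is imprecise. RBM3 was lower (-1.85 ± 0.14), and the poly(C) binders PCBP1 and PCBP2 were higher (1.88 ± 0.14 and 1.77 ± 0.15). The core spliceosome was mostly lower in H9, with 27 of 37 genes lower and 6 higher and a median of -0.84, against -0.07 over all genes. SF3B6 had 157 and 156 CPM in H9, against 843 and 882 CPM in HEK293T (-2.62 ± 0.15), and the Sm proteins SNRPD1, SNRPD3 and SNRPB were lower by a log2 difference of -2.22, -2.06 and -1.80. The lists are described by their counts and were not tested as sets.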

How the data were processed

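Reads in coding sequences were analysed from 12 ribosome profiling libraries. The deposited values are raw counts, 1 RefSeq transcript per gene, from reads handled with cutadapt and STAR 2.5.2b on hg19, per the submitters' processing notes. Counter, strand setting and annotation: not given in the sources used here. Rows naming no gene stayed out of library sizes. RefSeq (GRCh38.p14) named 18888 of 19305 accessions and gave the start regions. Libraries equal within sampling noise (chi-square, genes of 20 or more reads in both together) were summed.

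Counts were tested with edgeR 4.0.16 in R 4.3.3 (filterByExpr, TMM, estimateDisp, robust glmQLFit, glmQLFTest), checked on simulated counts. DESeq2 1.42.0 was an alternative. The fits of 2 against 2 libraries have 2 residual degrees of freedom, so p-values lean on the spread pooled over genes. Intervals are 95% binomial and cover counting error only. CPM of single libraries and their mean use unscaled totals.

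Members and lists were chosen with earlier results of these data known. Named genes are called members, otherwise the 5 of lowest p per class, the 5 largest differences each way between lines, and up to 4 per list. Coding lengths were not used here, so the part of that rule on footprint density was not applied.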

Additional observations from a re-analysis of the deposited data

Results flagged for a closer look

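Reads outside coding sequences belong to no comparison of the members, and their share was higher in the libraries labelled eIF2A siRNA than in any control siRNA library. Of uniquely placed reads, 51.1% in set 1 and 42.3% in set 2 lay outside coding sequences with eIF2A siRNA, against 39.98 and 35.2% with control siRNA. In H9 the share was 29.0 and 31.0% with eIF2A shRNA, against 28.9 and 31.0% with control shRNA. CPM here count coding reads only, and the part of this share in the members' changes was not tested.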

How the results depend on the processing

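For eIF2A siRNA in HEK293T, 1534 genes were called and between 735 (DESeq2) and 2993 (set as a replicate block) with the 4 summed libraries; fits of the 8 unsummed libraries called 473 with the CBP80 label and 383 with eIF4E. SR members called numbered 2 under a mean count filter of 50, 0 with DESeq2 and 0 in both 8-library fits, where 1 hnRNP (HNRNPUL2) was called. The block on set called 5 of 13 SR genes and 9 of 26 hnRNPs, beside 2993 of 12331 genes. In addition to the 4, it called SRSF2, SRSF3, SRSF5, TRA2B, HNRNPC, HNRNPD, HNRNPF, HNRNPK, HNRNPR and PTBP2. The labels do not say that a set number marks a shared culture, and with only 2 pairs per line the sets were not taken to pair, although deviations of same-numbered libraries correlated at 0.44 in HEK293T and 0.45 in H9 and same-set H9 libraries had a chi-square per degree of freedom of 1.04 and 1.07. The SR median moved to 0.025 with library sizes alone, -0.037 with no count filter and -0.030 in the eIF4E-labelled fit, and the hnRNP median to 0.037 with library sizes alone. Leaving out 1 library at a time gave 75 to 2086 genes, 0 to 3 SR members, 0 to 6 hnRNPs, SR medians of -0.12 to -0.0023 and hnRNP medians of -0.12 to -0.0074; a group then has 1 library, assumed to vary like the other. In H9, every alternative called 0 genes, the block moved the SR median to 0.047, and leave-outs gave SR medians of -0.0081 to 0.032 and hnRNP medians of -0.049 to 0.035. For CBP80 against eIF4E, genes called were 3 with no filter, 1 with DESeq2 and 6 with siRNA label and set as a replicate block, no member among them; leave-outs gave 0 to 2 genes, SR medians of -0.030 to 0.050 and hnRNP medians of -0.034 to 0.037. For H9 against HEK293T, the hnRNP median was 0.17 with library sizes alone, -0.13 with no filter and 0.16 under a mean count filter of 50, and leave-outs gave 5 to 8 SR members, SR medians of -0.22 to 0.068 and hnRNP medians of 0.029 to 0.25. No single member reversed a call. For single members, 21 calls were lost and 22 gained over the settings of the siRNA comparison. Between the lines 21 were lost, and gains were not counted because only called members were followed there. HNRNPA0, HNRNPL and HNRNPUL2, not called between the lines in the main fit, were called with library sizes alone and under a mean count filter of 50. Without HNRNPA1, HNRNPA1L2, HNRNPC, the HNRNPCL genes, SRSF2 and SRSF8, the SR share was 18.7 and 19.1% with eIF2A siRNA. It was 18.4 and 20.5% with control siRNA. HNRNPA3, SRSF3, HNRNPK and HNRNPDL, which have named pseudogenes as well, were kept in. The alternative on coding length was not run. Causes of these shifts were not tested. At H9 depth, genes under 3.2 CPM can go uncounted in a library.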

Other observations

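Of 36 members with at least 40 reads in each of the 4 pairs, 6 had log2 ratios of eIF2A over control of one sign in both HEK293T sets and of the other sign in both H9 sets, or 16.7%, against 19% of 7022 genes. They were HNRNPC, HNRNPH1, HNRNPH2, SRSF1, SRSF3 and TRA2B, and the members' share lay near that of all genes. These ratios use unscaled CPM, for which the median of all genes in HEK293T was 0.12 in set 1 and 0.05 in set 2. The sign of SRSF1 in HEK293T depends on this, with unscaled ratios of 0.09 and 0.07 but a TMM-scaled log2 change of -0.0048. HNRNPC had -0.41 and -0.14 in HEK293T and 0.13 and 0.13 in H9. SRSF3 had -0.39 and -0.25 in HEK293T and 0.09 and 0.17 in H9. The test of the difference between the lines passed for none of them.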
